A study of Mus musculus with 9 samples.

Results

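The collagen chains of mouse were followed through 9 RNA-Seq libraries of cultured AdvSca1-SM cells, which are Sca1-positive progenitors of the arterial adventitia that descend from smooth muscle cells. Every gene whose symbol has the form of a collagen alpha chain (Col, a type number, a, a chain number) was taken, which gave 44 chains among the 55416 genes of the table. Of these, 34 were among the 14879 genes that passed the filter on low counts, and 10 were not. The chains were sorted by the structure of the protein they encode into fibrillar (11 chains), basement membrane (6), FACIT (9, fibril-associated collagens with interrupted triple helices), beaded (6), transmembrane (4), network (3), anchoring fibril (1), multiplexin (2) and unclassified (2).

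The cells had been sorted as YFP-positive and Sca1-positive from the pooled carotid arteries and aorta (arch and descending part) of SM22α-Cre-YFP mice, in which the promoter of SM22α (Tagln) drives Cre and so marks cells that have at some time been smooth muscle. Cells were maintained in stem cell medium with 10% serum, basic fibroblast growth factor and epidermal growth factor. All groups were then growth-arrested for 24 h in 0.1% serum, and all received 0.1% DMSO for 72 h. Stem (n = 3) was kept in stem cell medium with vehicle, TGF-β (n = 3) received 5 ng/mL TGF-β1 in DMEM with 0.1% serum, and Both (n = 3) received the same medium and TGF-β1 together with 50 µM PFI-3, a small molecule inhibitor directed at the Brg1 bromodomain, the domain by which this chromatin remodeler reads acetylated histones. Medium (with its growth factors and possibly its serum) and cytokine change together between Stem and the other groups, so their effects cannot be told apart. The serum level of the Stem medium during the 72 h is not listed separately. No library of PFI-3 alone was analysed here. The study describes the 3 libraries of a group as independent replicates, and the labels do not say whether these were separate cultures or separate isolations of cells, so the p-values measure the spread between these libraries.

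Collagens are built from 3 alpha chains wound into a triple helix in which glycine recurs at a fixed spacing, as the first residue of each triplet. Fibrillar collagens form the tensile fibers of the adventitia and of scar tissue, type IV collagens form the sheet of the basement membrane, FACIT collagens sit on the surface of fibrils, and type VI collagens form beaded filaments around cells. A trimer can mix the products of different genes, so the relative amounts of its chains bear on which trimers a cell can make. Fibroblasts and myofibroblasts are the main source of fibrillar collagen in a fibrotic vessel wall, and TGF-β is the best known inducer of its genes.

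Fibrillar chains stand apart from the rest in the coding sequence by the longest unbroken run of triplets that start with a glycine codon. The ranges of FACIT, beaded, transmembrane and type IV chains overlap in this measure. In fibrillar chains of types I, II, III, V and XI this run spanned 337 to 344 triplets. It was 216 in Col24a1 and 217 in Col27a1, the remaining fibrillar chains. In the 6 type IV chains the helix was split into 23 to 27 shorter runs, of which the longest had between 39 and 66 triplets. The longest run was 32 to 113 triplets in FACIT chains, 37 to 87 in beaded chains and 40 to 56 in transmembrane chains.

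Library totals lay between 35686291 and 47741128 counts. Stem replicate 2 stood apart from the other Stem libraries: the chi-square per degree of freedom of its counts was 125.5 against replicate 1 and 103.1 against replicate 3, while that of replicates 1 and 3 was 7.338. Without it, Col24a1 was the 1 chain of 34 that lost its call against TGF-β or against Both and none gained one, and the log2 fold changes against Stem shifted by a median of 0.08 in either comparison, at most by 0.50 (Col4a3, at 3 counts or fewer per Stem library). The counts of chains and of processing genes that changed and the fibrillar, basement membrane and beaded shares are also given without it. Markers of the progenitor state, summed over 6 genes, came to between 54276 and 62686 normalized counts (counts scaled to a common library size) for Stem, between 12792 and 12944 for TGF-β and between 12714 and 13346 for Both. Pdgfra made up most of the Stem sum and fell with Ly6a, Cd34 and Scara5, whereas Klf4 rose 1.65-fold between Stem and TGF-β (edgeR adjusted p = 2.05e-09) and Gli1 rose from a mean of 1.06 to 11.6 normalized counts (adjusted p = 0.00103). The 5 myofibroblast markers summed to between 246731 and 259564, 440558 and 473097, and 323249 and 359508 in the same order, most of it Fn1. With PFI-3, Postn fell 3.34-fold (edgeR adjusted p = 2.094e-06), whereas Cthrc1 did not pass the test (1.06-fold lower, adjusted p = 0.2485). The 4 markers of mature smooth muscle summed to between 3278 and 4240 for Stem, 2960 and 3456 for TGF-β and 2784 and 2914 for Both, which lay below the other groups. Myh11 had means of 263, 88.3 and 51.6, and Cnn1 fell 1.55-fold with PFI-3 (adjusted p = 0.009138). Markers of endothelial cells summed to between 51.8 and 77.1 normalized counts and those of epithelium to at most 8.63. Among the endothelial markers, Kdr rose from a mean of 0.721 in Stem to 26.1 after TGF-β1 (edgeR adjusted p = 8.34e-06) and Tek fell from 45.7 to 18.3 (adjusted p = 0.0003387). The 5 macrophage markers summed to between 140 and 152 for Stem, 178 and 219 for TGF-β and 291 and 307 for Both, without overlap. Csf1r had means of 28.5, 76.1 and 138 and was 1.82-fold higher in Both than in TGF-β (edgeR adjusted p = 0.0149). Lyz2 had means of 114, 109 and 145. Cd68 had means of 3.53, 13.2 and 14.3 and rose 3.63-fold between Stem and TGF-β (edgeR adjusted p = 0.004754). Its Stem libraries were at 7.33, 1.09 and 2.16, and the 95% interval of this log2 change was 0.71 to 3.01. Ptprc had means of at most 2.37 and Adgre1 was at 0. The part of any of these marker lists in the collagen results was not tested. The labels name liver as the source of the RNA although the cells came from arteries, and 4 of the 5 hepatocyte markers (Alb, Apoa1, Ttr and Cyp2e1) had group means of at most 0.585 normalized counts, while Apob had means of 39.9, 29.95 and 15.8 in Stem, TGF-β and Both and was lower in Both than in TGF-β (edgeR adjusted p = 0.04615).

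Collagen reads took up a larger part of the library after TGF-β1 and a smaller part when PFI-3 was added. Of all counts, Stem had 1.40% ± 0.101 (SD, n = 3), TGF-β had 4.63% ± 0.160 and Both had 3.34% ± 0.136 on collagens. The ranges did not overlap, running from 1.31 to 1.51%, from 4.51 to 4.81% and from 3.23 to 3.49%. In bulk RNA, a smaller number of collagen-producing cells and less collagen RNA per cell cannot be told apart.

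**Figure D1:**
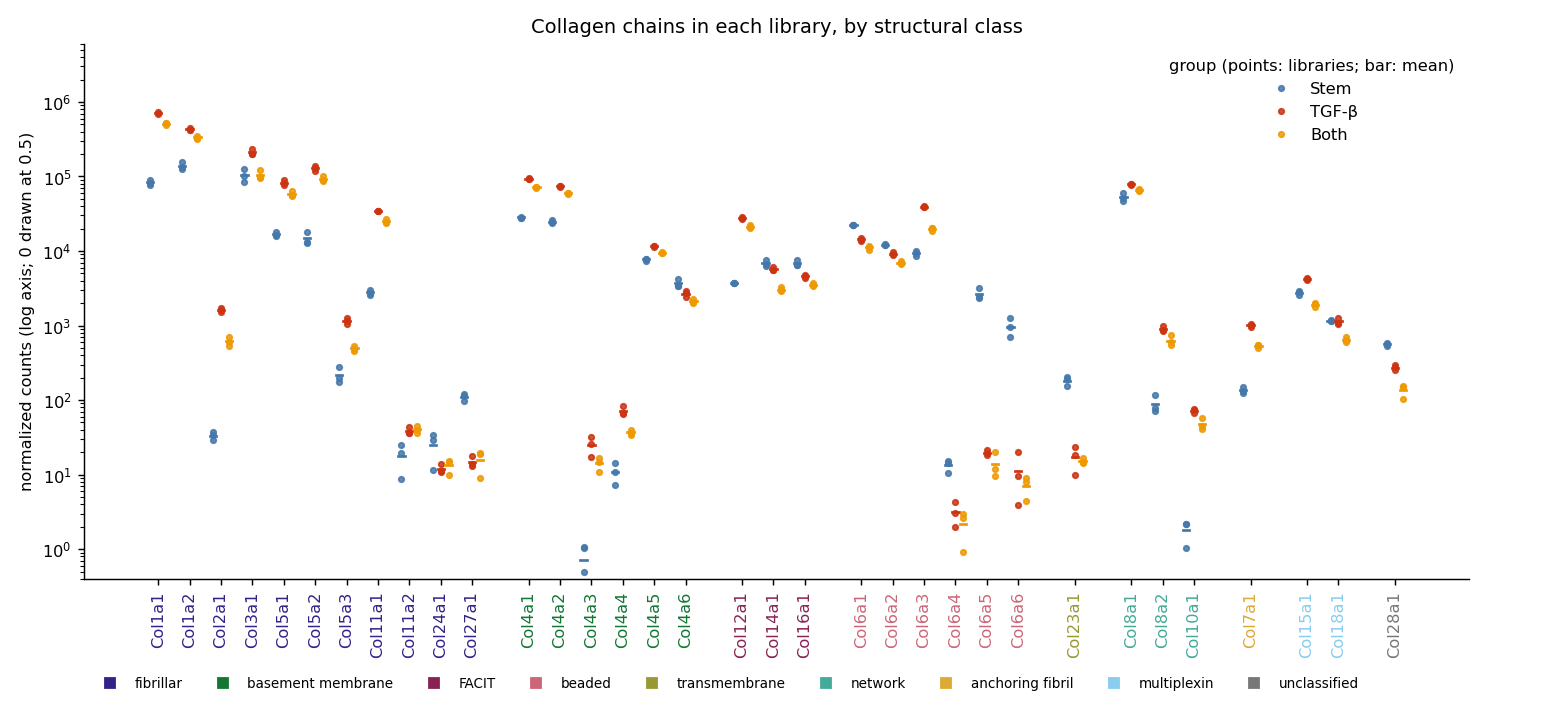
Each point is 1 library, placed by its normalized count on a log axis, for the 34 chains that passed the filter, with symbols colored by structural class and a bar at each group mean. Col1a1 lies between 77278 and 90561 counts in Stem and between 686626 and 732988 in TGF-β, while Col6a5 and Col6a6 drop out of the upper range in both treated groups.

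With TGF-β1, 33 of the 34 tested chains changed against Stem, 21 up and 12 down. By edgeR's quasi-likelihood test, change was called at an adjusted p below 0.05, by which 37.3% of all genes tested rose and 37.7% fell. By at least 2-fold, 18 chains rose and 7 fell, against 10.6% and 14.5% of all genes. The median log2 fold change was 1.06 over the chains and -0.0027 over all genes. In 32 of the 34 chains the Stem and TGF-β libraries did not overlap, against 76.8% of all genes. By class, 9 of 11 fibrillar, 5 of 6 basement membrane, 3 of 3 network and 1 of 3 FACIT chains rose, while 5 of 6 beaded chains fell; differences between classes were not tested. Without Stem replicate 2, 21 chains rose and 11 fell, 18 and 6 of them by at least 2-fold.

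When PFI-3 was added to TGF-β1, the tested chains that changed all went down. Of the 34 chains, 26 fell and 0 rose by edgeR's test, where 5.38% of all genes fell and 3.54% rose. No chain rose at an unadjusted p below 0.05 either (0 by edgeR, 0 by DESeq2), and DESeq2 called 25 lower. The median log2 fold change was -0.49 over the chains and -0.0020 over all genes, so the individual changes were mostly smaller than 2-fold. Only Col2a1, Col5a3, Col15a1, Col3a1 and Col28a1 fell by at least 2-fold, 5 chains against 0.47% of all genes. When edgeR's test was run against a minimum change of 2-fold, 0 of them passed at the adjusted threshold and 3 chains had an unadjusted p below 0.05. Leaving out 1 library of TGF-β or Both left between 21 and 24 chains that fell. The libraries of the 2 groups did not overlap in 27 chains, against 32.7% of all genes.

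**Figure D2:**
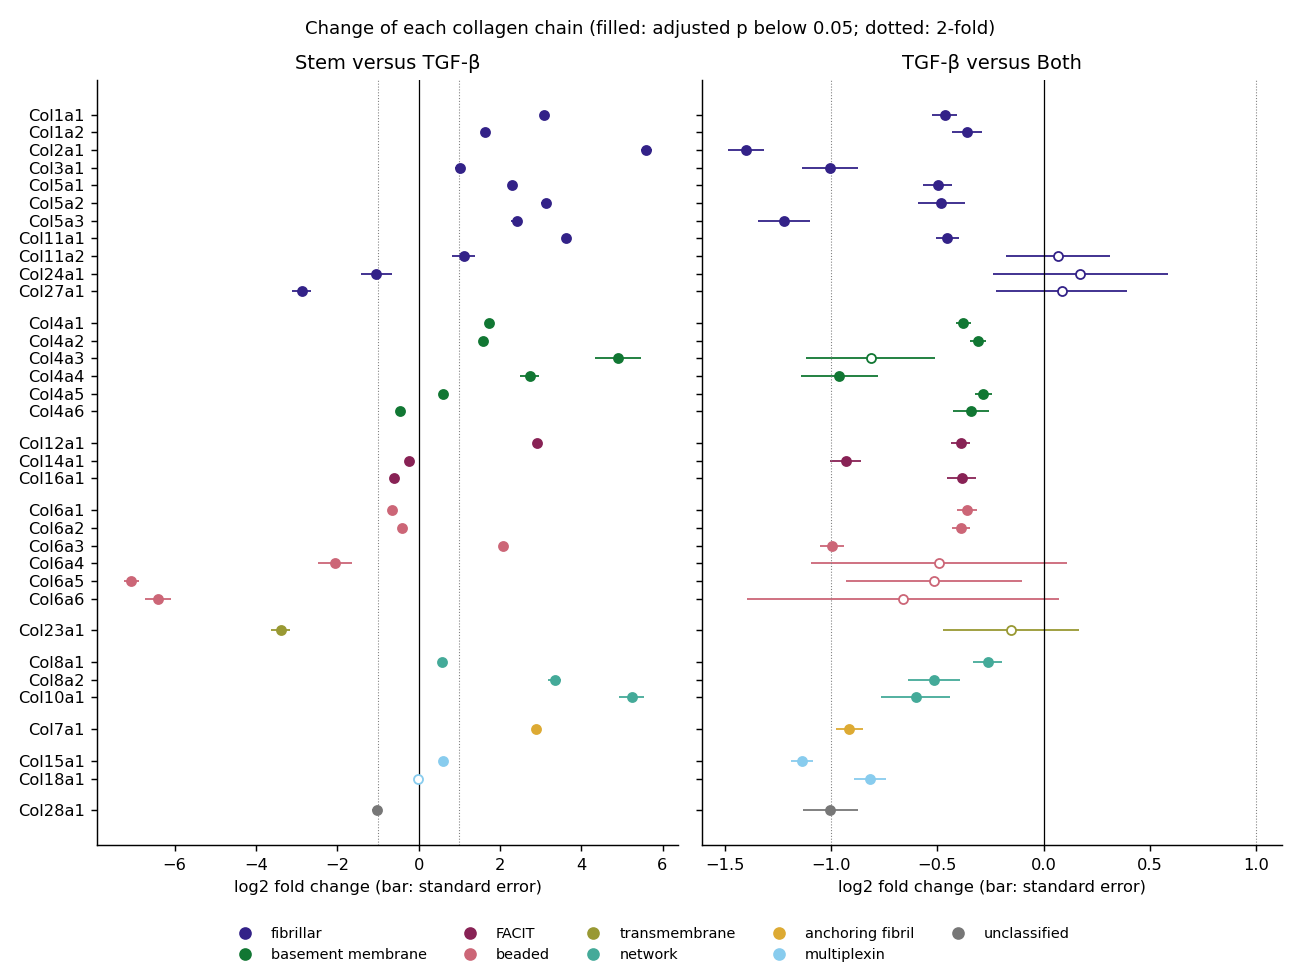
The log2 fold change of each chain is plotted with its standard error for Stem versus TGF-β (left) and TGF-β versus Both (right), colored by class, with filled points for an adjusted p below 0.05 and dotted lines at 2-fold. On the left the fibrillar chains lie mostly right of zero and the beaded chains mostly left of it, and on the right every filled point lies left of zero. The horizontal scales differ, and the fitted values of Col4a3 and Col10a1 on the left rest on 3 counts or fewer per Stem library.

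Among the fibrillar chains, those of type I were the most abundant after TGF-β1. Col1a1 and Col1a2 encode the chains of type I collagen, which usually joins 2 products of Col1a1 with 1 of Col1a2. Col1a1 was at 77278, 90561 and 82739 normalized counts in the Stem libraries, 702840, 732988 and 686626 in the TGF-β libraries and 520779, 522923 and 493626 in the Both libraries. The groups did not overlap, and Both lay between the other groups. Col1a1 was 8.47-fold higher in TGF-β than in Stem (log2 fold change 3.08 ± 0.06, adjusted p = 1.49e-12) and 1.38-fold lower in Both than in TGF-β (adjusted p = 0.000553, both by edgeR). For log2 fold changes, ± gives the standard error here and below. Col1a2 was at 127770, 155302 and 134223 normalized counts in the Stem libraries, 416851, 453405 and 420605 in the TGF-β libraries and 332478, 351618 and 320080 in the Both libraries. It followed the same order without overlap but over a narrower range, 3.09-fold up with TGF-β1 and 1.29-fold down with PFI-3 (edgeR adjusted p = 8.62e-10 and 0.00776).

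The chains of type I were therefore not in the same proportion in the 3 groups. Per kilobase of the longest protein-coding transcript, the ratio of Col1a1 to Col1a2 averaged 0.542 ± 0.0152 in Stem (SD, n = 3), against 1.48 ± 0.0328 in TGF-β and 1.38 ± 0.0366 in Both. No library of one group reached the range of another, and each pairwise comparison gave the smallest p that an exact permutation test of 3 against 3 libraries allows (two-sided p = 0.1). The level of this ratio depends on the transcript length used: over the union of all annotated exons it was 1.14, 3.11 and 2.90. The change between groups does not, being 2.74-fold from Stem to TGF-β under either length. By the transcript length Col1a2 was the most abundant chain of Stem and Col1a1 ranked 3, whereas by the exon union Col1a1 ranked 1; in TGF-β and Both, Col1a1, Col1a2 and Col3a1 ranked 1 to 3 under both.

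The promoters of Col1a2 and Col3a1 are shown because these are abundant fibrillar chains that stood 2.41-fold above Stem and at the level of Stem, respectively, in Both, and that of Col5a3 because it belongs to the same class at a far lower level. Each is the 250 bases before the start site in RefSeq (GRCm38.p6), printed on the strand of the gene, with capitals marking a match on either strand to the TATA box TATAAA, the CCAAT box, the GC box GGGCGG or the SMAD box CAGAC, none of which overlap.
Col1a2 promoter, chr6:4505368-4505617 (+): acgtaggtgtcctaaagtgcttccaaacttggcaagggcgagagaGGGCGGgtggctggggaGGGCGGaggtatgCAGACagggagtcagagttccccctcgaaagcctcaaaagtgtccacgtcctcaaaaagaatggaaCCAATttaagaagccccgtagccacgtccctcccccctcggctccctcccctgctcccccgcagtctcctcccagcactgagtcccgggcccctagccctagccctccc
Col3a1 promoter, chr1:45311288-45311537 (+): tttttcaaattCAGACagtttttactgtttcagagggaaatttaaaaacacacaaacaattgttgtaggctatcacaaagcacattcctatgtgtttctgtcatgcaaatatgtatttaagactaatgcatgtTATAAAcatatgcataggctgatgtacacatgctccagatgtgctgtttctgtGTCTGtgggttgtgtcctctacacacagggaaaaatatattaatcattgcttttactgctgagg
Col5a3 promoter, chr9:20815068-20815317 (-): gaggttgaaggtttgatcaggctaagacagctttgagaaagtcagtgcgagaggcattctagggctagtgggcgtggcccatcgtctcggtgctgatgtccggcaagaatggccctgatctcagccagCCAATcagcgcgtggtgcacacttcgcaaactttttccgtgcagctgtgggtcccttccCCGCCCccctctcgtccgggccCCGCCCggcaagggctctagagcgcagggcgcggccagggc
The Col1a2 window held GGGCGG at -205 to -200 and at -188 to -183, CAGAC at -175 to -171 and CCAAT at -109 to -105 from the start. The Col3a1 window held TATAAA at -117 to -112 and CAGAC at -239 to -235 and, on the other strand, at -64 to -60. The Col5a3 window held CCAAT at -122 to -118 and GGGCGG on the other strand at -63 to -58 and at -41 to -36.

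Col3a1, whose homotrimer forms thin fibrils that accompany type I collagen in vessels, was at 85469, 127087 and 100506 normalized counts in the Stem libraries, 199137, 232577 and 201328 in the TGF-β libraries and 96091, 121698 and 97194 in the Both libraries. TGF-β lay above both other groups, and the ranges of Stem and Both overlapped. Col3a1 rose 2.02-fold with TGF-β1 (log2 fold change 1.02 ± 0.13, adjusted p = 1.8e-05) and fell 2.01-fold with PFI-3 (edgeR adjusted p = 0.000634). Between Stem and Both its log2 difference was 0.01 with a 95% interval of -0.29 to 0.31 (edgeR adjusted p = 0.955), so a change of the size seen in either other comparison lay outside that interval. Col5a2, the neighbour of Col3a1 on chromosome 1, was at 12795, 18036 and 13396 normalized counts in the Stem libraries, 120117, 137583 and 128600 in the TGF-β libraries and 87100.3, 100920 and 88635 in the Both libraries. The groups did not overlap, and Both stayed above Stem. It rose 8.73-fold with TGF-β1 (edgeR adjusted p = 2.44e-10) and was 1.4-fold lower in Both than in TGF-β (adjusted p = 0.0189). That second call was lost without TGF-β replicate 2 or 3 or Both replicate 1 or 3, with adjusted p between 0.0665 and 0.0866.

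Type V and type XI collagens are minor fibrillar collagens that are built into type I and type II fibrils and control their diameter. Col5a1 was at 15906, 17729 and 16479.7 normalized counts in the Stem libraries, 77348, 88718 and 81361 in the TGF-β libraries and 56303, 63646 and 55079 in the Both libraries. Its groups kept apart in the order Stem, Both, TGF-β, with a rise of 4.94-fold and a fall of 1.41-fold (edgeR adjusted p = 3.09e-11 and 0.000742). Col5a3, the rarest type V chain, was at 174, 278 and 198 normalized counts in the Stem libraries, 1034, 1279 and 1137 in the TGF-β libraries and 456, 536 and 489 in the Both libraries. It showed the same order without overlap, with a rise of 5.32-fold and a fall of 2.33-fold with PFI-3 (log2 fold change -1.22 ± 0.12, adjusted p = 0.000128). Col11a1 was at 2604, 2990.3 and 2769.5 normalized counts in the Stem libraries, 33934, 34464 and 34088 in the TGF-β libraries and 24594, 26489 and 23789 in the Both libraries, a rise of 12.3-fold followed by a fall of 1.37-fold (edgeR adjusted p = 2.83e-13 and 0.000312), again with no overlap.

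Relative to Col5a2, both other type V chains took a smaller part after TGF-β1. Per kilobase, Col5a1 to Col5a2 was 0.908 ± 0.116 (SD, n = 3) in Stem but 0.505 ± 0.00534 after TGF-β1 and 0.499 ± 0.00996 with PFI-3 added. Over the union of exons the values were 1.30, 0.724 and 0.715, so that which of the 2 chains was the more abundant in Stem depends on the length used. Stem lay above both treated groups, which overlapped. Col5a3 to Col5a2 was 0.0158, 0.00965 and 0.00580, with all 3 groups apart. The exact permutation p was 0.1 in each comparison of groups without overlap, the smallest possible, and 0.5 for Col5a1 to Col5a2 between TGF-β and Both.

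Col2a1 encodes the main collagen of cartilage, and it showed the widest rise of the fibrillar chains from a very low start. It was at 33.5, 29.3 and 36.8 normalized counts in the Stem libraries, 1522, 1629.8 and 1701 in the TGF-β libraries and 609, 699 and 534 in the Both libraries. The 3 groups kept apart, with a rise of 48.5-fold (log2 fold change 5.60 ± 0.13, adjusted p = 3.19e-12) and a fall of 2.64-fold with PFI-3 (edgeR adjusted p = 3.94e-06). Among 7 chondrocyte markers, summed to between 2937 and 3304 normalized counts for Stem, 3642 and 3711 for TGF-β and 2838 and 2973 for Both, the abundant members were Sox9, with means of 2178, 2365 and 1979, and Comp, with means of 925, 1069.8 and 781. Sox9 did not pass the test between Stem and TGF-β (edgeR adjusted p = 0.0943), and Comp rose 1.16-fold. Matn3 had means of 4.99, 188 and 116 and Acan of 0.349, 49.0 and 13.3, while Matn1 was at 0 in every group, Hapln1 at no more than 1.38 and Cnmd at 5.71, 0 and 0.658. Their part in the Col2a1 result was not tested.

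The remaining fibrillar chains were scarce. Col27a1 was at 120.4, 97.8 and 115 normalized counts in the Stem libraries, 14, 13.2 and 17.6 in the TGF-β libraries and 18.9, 8.88 and 19.3 in the Both libraries, so that Stem lay above both treated groups, which overlapped, and it fell 7.36-fold with TGF-β1 (log2 fold change -2.88 ± 0.23, adjusted p = 2.21e-07). Col11a2 and Col24a1 had at most 44.8 normalized counts in any library. Col11a2 rose 2.15-fold between Stem and TGF-β (edgeR adjusted p = 0.00408). Col24a1 fell at an edgeR adjusted p of 0.0254, but its Stem and TGF-β libraries overlapped and the call was lost by DESeq2 (adjusted p = 0.0533) and without Stem replicate 2 or 3 or TGF-β replicate 2 or 3, with adjusted p between 0.0694 and 0.111. Col11a2, Col24a1 and Col27a1 were the 3 fibrillar chains that did not pass the test between TGF-β and Both.

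All 6 basement membrane chains passed the filter. Col4a1 and Col4a2, which together form the common type IV trimer, are read in opposite directions from starts on chromosome 8 that RefSeq places so close that the transcripts overlap by 22 bases. Col4a1 was at 28090.1, 28908 and 27792 normalized counts in the Stem libraries, 91245, 93220.3 and 95089 in the TGF-β libraries and 72161, 72182 and 70880.1 in the Both libraries. Col4a2 was at 24419.7, 25786 and 24063 normalized counts in the Stem libraries, 73025, 73922 and 74737 in the TGF-β libraries and 60266, 59712 and 59116 in the Both libraries. Both chains had 3 separate groups with Both in the middle. Col4a1 rose 3.3-fold and Col4a2 2.98-fold with TGF-β1 (edgeR adjusted p = 2.4e-12 and 6.43e-12), and they fell 1.3-fold and 1.24-fold with PFI-3 (adjusted p = 0.000116 and 0.000514). Their ratio per kilobase stayed near 1, at 1.11 ± 0.0179 in Stem, 1.23 ± 0.0111 after TGF-β1 and 1.17 ± 0.0061 with PFI-3 added, although even these narrow ranges did not overlap (exact permutation p = 0.1, the smallest possible).

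Col4a5 and Col4a6, a second head-to-head pair, on the X chromosome, moved in opposite directions with TGF-β1. Col4a5 was at 7913, 7860.4 and 7331 normalized counts in the Stem libraries, 11389, 11838 and 11545 in the TGF-β libraries and 9601, 9529 and 9441 in the Both libraries, with every TGF-β library above every Stem library and Both between them. It rose 1.5-fold (edgeR adjusted p = 3.86e-08) and fell 1.22-fold with PFI-3. Col4a6 lay between 2025 and 4202 normalized counts, fell 1.38-fold with TGF-β1 (log2 fold change -0.46 ± 0.08, adjusted p = 0.000327) and was 1.27-fold lower again with PFI-3 (edgeR adjusted p = 0.0281). The latter call was lost without TGF-β replicate 2 or 3 or Both replicate 1 or 3, with adjusted p between 0.0969 and 0.129. The ratio of Col4a5 to Col4a6 per kilobase was 2.15 ± 0.235 in Stem, 4.43 ± 0.294 after TGF-β1 and 4.60 ± 0.282 with PFI-3 added, with the treated groups overlapping each other and both above Stem (exact permutation p = 0.5 between them and 0.1 against Stem). Over the union of exons it was 2.51, 5.17 and 5.36.

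Col4a3 and Col4a4, the chains best known from the glomerular basement membrane, had few counts in Stem, where Col4a3 was near the detection limit. Col4a3 had 2 counts in all Stem libraries together and 73 in the TGF-β libraries, a ratio of 34.8 with a 95% counting interval of 9.29 to 293 after scaling. Col4a4 ranged from 7.33 to 14.1 normalized counts for Stem, from 64.9 to 83.0 for TGF-β and from 34.2 to 39.6 for Both, and it rose 6.62-fold and fell 1.95-fold (edgeR adjusted p = 4.03e-07 and 0.00643). Intervals and floors made from counts cover counting error only.

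Of the 9 FACIT chains, only Col12a1, Col14a1 and Col16a1 passed the filter. Col12a1, which links fibrils to surrounding matrix and is found in tissues under tension, was at 3722, 3711 and 3697 normalized counts in the Stem libraries, 28325, 26781 and 28068 in the TGF-β libraries and 20239, 20790.2 and 22410.2 in the Both libraries. The groups kept apart, with Both in the middle, and Col12a1 rose 7.47-fold (log2 fold change 2.90 ± 0.05, adjusted p = 2.83e-13) and fell 1.31-fold with PFI-3 (edgeR adjusted p = 0.000231). Col14a1, a relative with a similar domain layout, went the other way and was at 6211, 7562 and 6792 normalized counts in the Stem libraries, 5585, 6170.1 and 5591 in the TGF-β libraries and 2865, 3259 and 2977 in the Both libraries. Its Stem libraries all lay above the TGF-β libraries by a small margin, while Both lay well below both groups. Col14a1 fell 1.19-fold with TGF-β1 (edgeR adjusted p = 0.00765) and 1.91-fold more with PFI-3 (log2 fold change -0.93 ± 0.07, adjusted p = 2.77e-05). Col16a1 was at 6458, 7682 and 6533 normalized counts in the Stem libraries, 4296, 4772 and 4598 in the TGF-β libraries and 3342, 3674 and 3447 in the Both libraries, stepping down without overlap from Stem to TGF-β to Both (edgeR adjusted p = 5.05e-06 and 0.00437). The 6 other FACIT chains (Col9a1, Col9a2, Col9a3, Col19a1, Col20a1 and Col22a1) had at most 12.0 normalized counts in any library, where the floor of 3 counts stands at 2.63 to 3.26.

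In the beaded class, 5 of the 6 chains fell with TGF-β1 and 1 rose. Col6a1, Col6a2 and Col6a3 form the common type VI trimer. Col6a1 was at 22269, 22374 and 22613 normalized counts in the Stem libraries, 14957, 14169 and 13834 in the TGF-β libraries and 11262, 11767 and 10442 in the Both libraries. Col6a2 was at 12186, 12348 and 11999.8 normalized counts in the Stem libraries, 9582, 9051 and 8860.1 in the TGF-β libraries and 6980.4, 7290.3 and 6709 in the Both libraries. Both chains stepped down from Stem to TGF-β to Both without overlap. Col6a1 fell 1.57-fold with TGF-β1 and 1.28-fold with PFI-3, and Col6a2, its neighbour on chromosome 10, fell 1.33-fold and 1.31-fold (edgeR adjusted p between 1e-07 and 0.000687). Col6a3 was at 9404, 10016 and 8581 normalized counts in the Stem libraries, 40519, 39173 and 38394 in the TGF-β libraries and 20326, 20338 and 18540.5 in the Both libraries. Between Stem and TGF-β it moved against its partners, rising 4.22-fold (log2 fold change 2.08 ± 0.06, edgeR adjusted p = 1.87e-11). With PFI-3 it fell as they did, by 1.99-fold (edgeR adjusted p = 2.91e-06), so that TGF-β was highest and Stem lowest. This fall was just short of 2-fold, whereas those of Col3a1 at 2.01-fold and Col28a1 at 2.01-fold lay just past it.

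The chain proportions of type VI changed accordingly. Col6a3 to Col6a2 per kilobase was 0.353 ± 0.0222 (SD, n = 3) in Stem, 1.98 ± 0.0272 after TGF-β1 and 1.30 ± 0.0365 with PFI-3 added, a 5.62-fold change between Stem and TGF-β with no overlap between any groups (exact permutation p = 0.1, the smallest possible). Col6a1 to Col6a2 was 2.09 ± 0.0433, 1.77 ± 0.00280 and 1.81 ± 0.0375, with Stem above both treated groups and TGF-β and Both overlapping (exact permutation p = 0.4 between the latter). These levels depend on the length used as well. Over the union of exons Col6a3 to Col6a2 was 0.533, 2.99 and 1.96 and Col6a1 to Col6a2 was 3.5, 2.97 and 3.03, and without division by length the former was 0.766, 4.30 and 2.82.

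**Figure D3:**
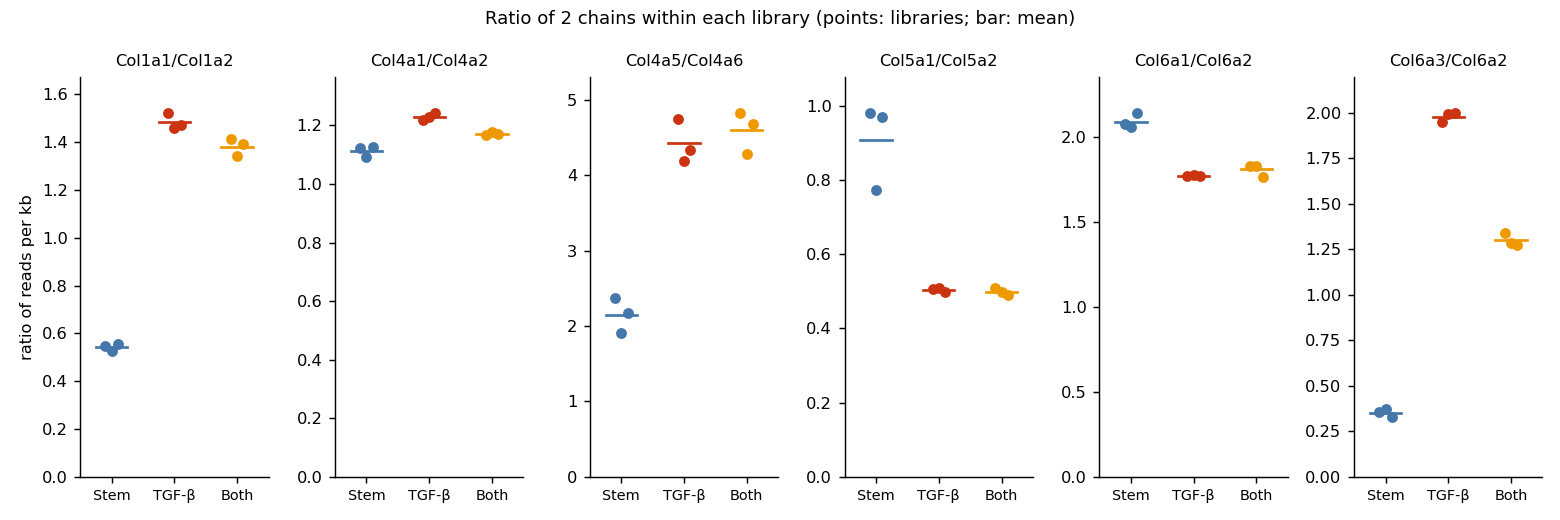
Each point is the ratio of 2 chains of one collagen type in 1 library, in reads per kilobase of the longest protein-coding transcript, with a bar at the group mean and each vertical axis starting at 0. The Col6a3 to Col6a2 ratio goes from 0.353 in Stem to 1.98 in TGF-β and 1.30 in Both, while Col4a1 to Col4a2 stays between 1.09 and 1.24 in all libraries.

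Col6a4, Col6a5 and Col6a6 lie next to one another on chromosome 9 and encode chains that can stand in for the Col6a3 product in the type VI trimer. Col6a5 was at 2358, 3228 and 2442 normalized counts in the Stem libraries, 19.4, 21.3 and 18.6 in the TGF-β libraries and 19.8, 11.8 and 9.65 in the Both libraries. Col6a6 was at 712, 1251 and 947 normalized counts in the Stem libraries, 9.71, 20.3 and 3.91 in the TGF-β libraries and 9, 7.9 and 4.39 in the Both libraries. Every Stem library lay far above every treated library, and TGF-β and Both overlapped for both chains. Col6a5 fell 135-fold with TGF-β1 (log2 fold change -7.07 ± 0.18, adjusted p = 8.07e-12) and Col6a6 85.3-fold (edgeR adjusted p = 2.68e-09). The log2 fold change of Col6a6 was -6.41 with a 95% interval of -7.16 to -5.67. Its TGF-β libraries ranged from 3.91 to 20.3 normalized counts. Between TGF-β and Both the log2 differences of Col6a5 and Col6a6 had 95% intervals of -1.47 to 0.45 and -2.37 to 1.04. No change was detected, though these intervals are wide. Col6a4 had between 10.5 and 15.1 normalized counts in Stem and at most 4.32 in the treated groups. Stem alone thus held appreciable Col6a5 and Col6a6, at 288 and 110 normalized counts per kilobase against 924 for Col6a3.

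The promoters of Col6a1, Col6a3 and Col6a5 are shown as those of type VI chains that moved in different ways, from the same RefSeq table with the same capitals.
Col6a1 promoter, chr10:76726045-76726294 (-): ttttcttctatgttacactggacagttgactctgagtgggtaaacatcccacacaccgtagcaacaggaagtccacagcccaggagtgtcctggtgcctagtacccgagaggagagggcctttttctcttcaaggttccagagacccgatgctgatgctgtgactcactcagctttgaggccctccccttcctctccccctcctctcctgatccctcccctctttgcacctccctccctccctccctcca
Col6a3 promoter, chr1:90843972-90844221 (-): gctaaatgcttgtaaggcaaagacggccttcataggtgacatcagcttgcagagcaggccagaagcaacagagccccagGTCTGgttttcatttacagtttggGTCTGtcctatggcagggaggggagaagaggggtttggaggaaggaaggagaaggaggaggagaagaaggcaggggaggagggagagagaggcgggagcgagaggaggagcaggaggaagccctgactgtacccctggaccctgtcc
Col6a5 promoter, chr9:105960644-105960893 (-): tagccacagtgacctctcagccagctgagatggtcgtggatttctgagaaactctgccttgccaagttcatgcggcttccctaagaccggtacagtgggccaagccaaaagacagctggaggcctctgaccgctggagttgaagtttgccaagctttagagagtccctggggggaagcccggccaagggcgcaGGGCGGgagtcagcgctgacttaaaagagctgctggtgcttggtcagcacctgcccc
The Col6a1 window held none of the 4 motifs. The Col6a3 window held CAGAC on the other strand at -171 to -167 and at -147 to -143, and the Col6a5 window held GGGCGG at -57 to -52. RefSeq windows matched 35 of the chains, with 38 windows in all. GGGCGG was present in 57.9% of these and in 32.7% of all 32851 mouse promoter windows of the same length, TATAAA in 13.2% and 12.4%, CCAAT in 34.2% and 33.8%, and CAGAC in 44.7% and 42.2%. These are counts of letters, not of bound sites.

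Among the 4 transmembrane chains, only Col23a1 passed the filter. It was at 189, 152 and 201 normalized counts in the Stem libraries, 23.7, 18.3 and 9.76 in the TGF-β libraries and 14.4, 16.8 and 14.9 in the Both libraries. Stem lay above both treated groups, which overlapped, and Col23a1 fell 10.5-fold with TGF-β1 (log2 fold change -3.40 ± 0.22, adjusted p = 3.59e-08). Col17a1, the hemidesmosome collagen of skin, had between 1.95 and 6.08 normalized counts, Col25a1 at most 1.97, and Col13a1 was at 0 in every library.

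The 3 network-forming chains all rose with TGF-β1. Col8a1, a short chain collagen made by vascular cells, was at 47339, 59428 and 51888 normalized counts in the Stem libraries, 80408, 78639 and 77971 in the TGF-β libraries and 65962, 67651 and 63797 in the Both libraries. Its groups kept apart in the order Stem, Both, TGF-β, over a range of only 1.49-fold (edgeR adjusted p = 7.3e-06). Col8a2, its usual partner, was at 71.2, 115 and 77.9 normalized counts in the Stem libraries, 838, 984 and 874 in the TGF-β libraries and 597, 743 and 548 in the Both libraries, with the same order and a rise of 10.2-fold (log2 fold change 3.35 ± 0.16, adjusted p = 1.83e-09). Col10a1, the collagen of hypertrophic cartilage, had 5 counts in the Stem libraries together and 212 in the TGF-β libraries, a ratio of 40.4 with a 95% counting interval of 17.1 to 126 after scaling. With PFI-3 the 3 chains fell by 0.26, 0.52 and 0.60 on the log2 scale at edgeR adjusted p of 0.0312, 0.0227 and 0.0415. Each of these calls was lost when a library was left out: for Col8a1 any of the 6, for Col8a2 any but Both replicate 2, and for Col10a1 any but Both replicate 1, with adjusted p between 0.0504 and 0.150, and that of Col10a1 also by DESeq2 (adjusted p = 0.121).

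Col7a1 forms the anchoring fibrils beneath epithelia, and it was at 126, 149 and 133 normalized counts in the Stem libraries, 956, 1031 and 1039 in the TGF-β libraries and 504, 546 and 556 in the Both libraries. The groups did not overlap, with a rise of 7.43-fold (log2 fold change 2.89 ± 0.08, adjusted p = 1.17e-11) and a fall of 1.88-fold with PFI-3 (edgeR adjusted p = 1.61e-05). The multiplexins are basement membrane collagens that carry heparan or chondroitin sulfate chains and release endostatin-type fragments. Col15a1 was at 2827, 2877 and 2576 normalized counts in the Stem libraries, 4111, 4183 and 4278 in the TGF-β libraries and 1988, 1939.5 and 1785 in the Both libraries, so that Both lay below Stem as well as below TGF-β. It rose 1.52-fold with TGF-β1, fell 2.2-fold with PFI-3 (log2 fold change -1.14 ± 0.05, adjusted p = 1e-06) and was lower in Both than in Stem by 1.45-fold (adjusted p = 1.49e-06).

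Col18a1 was at 1134, 1195 and 1146 normalized counts in the Stem libraries, 1054, 1269.7 and 1097 in the TGF-β libraries and 639, 703 and 602 in the Both libraries. Stem and TGF-β overlapped and Both lay below them. It did not pass the test between Stem and TGF-β, where the 95% interval of the log2 difference was -0.19 to 0.15, and it fell 1.76-fold with PFI-3 (edgeR adjusted p = 7.82e-05). Col28a1, a chain with von Willebrand factor domains, was at 564, 577 and 537 normalized counts in the Stem libraries, 254, 275 and 291 in the TGF-β libraries and 103, 156 and 151 in the Both libraries, stepping down without overlap by 2.05-fold and then 2.01-fold (edgeR adjusted p = 4.91e-06 and 0.000618). Col26a1, also left unclassified, had at most 1.97 normalized counts.

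Read against Stem, the cells that received TGF-β1 and PFI-3 together differed in most collagen chains. In that comparison 19 chains rose and 14 fell, with 36.6% of all genes tested rising and 36.6% falling, and 17 and 8 did so by at least 2-fold against 9.55% and 13.2%. The libraries did not overlap in 32 chains, against 74.7% of all genes. Without Stem replicate 2, 19 chains rose and 13 fell, 17 and 7 of them by at least 2-fold. Of the fibrillar chains 8 rose and 2 fell, of the basement membrane chains 5 rose and 1 fell, and of the beaded chains 1 rose and 5 fell. Of the 2 fibrillar falls, that of Col24a1 (edgeR adjusted p = 0.0467, groups overlapping) was lost by DESeq2 (adjusted p = 0.103) and without Stem replicate 2 or 3 or any 1 Both library, with adjusted p between 0.0666 and 0.201. Col1a1 was 6.14-fold and Col11a1 8.95-fold higher in Both than in Stem (edgeR adjusted p = 4.99e-12 and 7.37e-13), Col14a1 was 2.26-fold lower (adjusted p = 2.13e-08), and Col3a1 was the chain that did not pass. This comparison shares libraries with the previous ones and is not independent of them.

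The share of each class in the collagen reads of a library, per kilobase of transcript, moved as follows. Fibrillar chains held 65.5% ± 1.61 of the Stem reads (SD, n = 3), 82.4% ± 0.665 of those after TGF-β1 and 81.1% ± 0.454 of those with PFI-3 added. Without Stem replicate 2 the Stem values were 64.7% for fibrillar, 10.6% for basement membrane and 10.2% for beaded chains. Beaded chains held 9.78% ± 0.832, 2.84% ± 0.161 and 2.61% ± 0.0505, and basement membrane chains 10.2% ± 0.792, 8.41% ± 0.327 and 9.25% ± 0.336. Network chains, nearly all Col8a1, held 10.7% ± 0.175, 4.76% ± 0.206 and 5.51% ± 0.0763, and FACIT chains 2.81% ± 0.0539, 1.27% ± 0.0428 and 1.26% ± 0.0790. Each of these classes had no overlap between Stem and TGF-β, with the smallest p the exact permutation test allows (two-sided p = 0.1). Between TGF-β and Both the same p was reached by all but FACIT (exact permutation p = 0.8). Transmembrane chains held at most 0.0390% in any library. Shares add up to 100%, so a class can lose share while its reads do not fall. The summed reads per kilobase of basement membrane chains were 9843 ± 325 in Stem and 27729 ± 461 after TGF-β1, those of network chains 10374 ± 1201 and 15698 ± 239, and those of FACIT chains 2714 ± 233 and 4184 ± 25.3 (SD, n = 3), each without overlap. The beaded sum was 9409 ± 160 and 9361 ± 328, with overlapping groups (exact permutation p = 0.8). The lower beaded share thus came with no detectable fall of the beaded sum at this length. With PFI-3 added the sum was 6180 ± 321, below both. The beaded sum joins 5 chains that fell with TGF-β1 and Col6a3, which rose 4.22-fold, and it was not computed over another length.

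**Figure D4:**
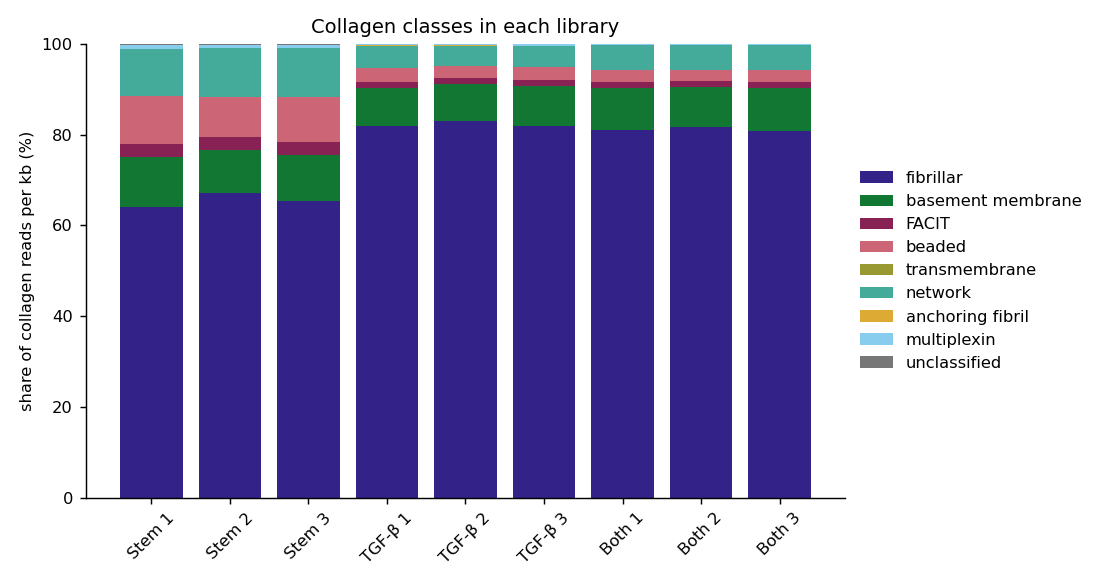
Each bar is 1 library, divided by structural class into shares of the summed collagen reads per kilobase, in percent. The fibrillar share lies between 64.0 and 67.2% in Stem and between 80.8 and 83.1% in the treated libraries, and the beaded and network shares are both narrower in the treated libraries.

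The genes that modify, secrete, trim, crosslink and bind collagen were followed as 40 genes, of which 39 passed the filter. With TGF-β1, 27 rose and 10 fell, where 37.3% and 37.7% of all genes tested did so, and their median log2 fold change was 0.51. Without Stem replicate 2, 25 rose and 10 fell. All 5 lysyl oxidases, the enzymes that crosslink collagen, rose. Lox was at 17163, 25729 and 19177 normalized counts in the Stem libraries, 241886, 257626 and 250920 in the TGF-β libraries and 235936, 262460 and 244144 in the Both libraries. TGF-β and Both overlapped far above Stem, and Lox rose 12.1-fold (log2 fold change 3.60 ± 0.13, adjusted p = 1.03e-10), while its log2 difference between TGF-β and Both had a 95% interval of -0.28 to 0.25. Loxl2 and Loxl4 rose 7.52-fold and 5.11-fold and fell 1.32-fold and 1.29-fold with PFI-3 (edgeR adjusted p = 0.000231 and 0.00841).

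Of 14 prolyl and lysyl modification genes tested, 12 rose with TGF-β1 and 1 fell, beside 37.3% and 37.7% of all genes. P4ha1, a catalytic subunit of the prolyl 4-hydroxylase that stabilizes the helix, was at 11922, 10328 and 11214 normalized counts in the Stem libraries, 16918, 16957 and 16691 in the TGF-β libraries and 18723, 18038 and 17271 in the Both libraries, and Plod2, a lysyl hydroxylase, was at 24826, 22251 and 24216 normalized counts in the Stem libraries, 41958, 42516 and 41471 in the TGF-β libraries and 45030.4, 46116 and 43456 in the Both libraries. For both genes the treated libraries lay above all Stem libraries, with rises of 1.51-fold and 1.77-fold (edgeR adjusted p = 4.49e-07 and 8.03e-09). Serpinh1, the collagen chaperone HSP47, was at 30751, 34460.2 and 31469 normalized counts in the Stem libraries, 69291, 73265 and 68356 in the TGF-β libraries and 58707, 64135 and 55967 in the Both libraries, a rise of 2.18-fold and a fall of 1.18-fold with PFI-3 (edgeR adjusted p = 4.64e-09 and 0.0263), with no overlap.

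Of the 7 propeptide genes 2 rose and 5 fell with TGF-β1, beside the same 37.3% and 37.7% of all genes. Adamts2 and Adamts3, which cut the amino-terminal propeptide, fell 1.82-fold and 3.61-fold (edgeR adjusted p = 7.73e-10 and 2.38e-05). Of the 8 receptors 4 rose and 4 fell, shares near those over all genes. The collagen-binding integrin subunit Itga2 rose 5.81-fold, whereas Itga1 fell 3.74-fold and the receptor kinase Ddr2 fell 2.01-fold (edgeR adjusted p = 1.4e-11, 4.34e-12 and 6.31e-10).

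With PFI-3, 6 of these 39 genes rose, 7 fell and 26 did not pass the test, where 3.54% of all genes rose and 5.38% fell, with a median log2 fold change of 0.03 against -0.49 for the chains. Among the genes that passed, P3h4, P4ha2 and Sec23a had the largest rises, of 1.38-fold, 1.22-fold and 1.16-fold (edgeR adjusted p = 0.00707, 0.0197 and 0.005). Itga11, Loxl2 and Loxl4 had the largest falls, led by Itga11 at 1.43-fold (log2 fold change -0.52 ± 0.05, adjusted p = 0.000128). Leaving out TGF-β replicate 2 or Both replicate 1 left 2 that rose, leaving out TGF-β replicate 3 left 3, and the other libraries of these groups left at most 5. Between Stem and Both, 27 of the 39 rose and 10 fell (27 and 9 without Stem replicate 2), where 36.6% of all genes rose and 36.6% fell, with Lox, Itga2 and Loxl2 highest at 12-fold, 5.9-fold and 5.7-fold and Itga1, Adamts3 and Adamts2 lower by 3.46-fold, 2.35-fold and 2.29-fold.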

How the data were processed

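The deposited table holds unnormalized counts of reads per gene for 9 libraries, as made by the authors. The submitters' notes name HISAT2 2.2.1, SAMtools 1.13, HTSeq 0.11.3 and GRCm39, while the study's methods name Flexbar and STAR with GRCm39, and which was used for these counts, the strand setting and the treatment of multiply aligned reads are not given in the sources used here. Libraries were ribosomal RNA-depleted and paired-end.

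Counts were tested in R 4.3.3 with edgeR 4.0.16 (filterByExpr, TMM, quasi-likelihood test, 1 fit of 9 libraries with group as the term, prior count 0.125) and p was adjusted by Benjamini-Hochberg over 14879 genes. Rose and fell mean an adjusted p below 0.05; 2-fold was counted separately. DESeq2 1.42.0, which the study used, was an alternative. Normalized counts are scaled to a library of 41184338. The value after ± on a log2 fold change is its standard error, taken from the fold change and the F statistic of the test.

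Levels were compared between chains only per kilobase of the longest protein-coding transcript (GENCODE M21, GRCm38). This length was chosen after values had been computed with it and with the union of exons, which was used first. Most ratios of chains and the fibrillar, basement membrane and beaded shares are given with both. Shares and ratios were compared by exact permutation of libraries.

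The members and lists were chosen with earlier results of these data known. Values per library are given for the 3 most abundant chains of each class, except Col10a1, Col17a1, Col25a1 and Col26a1, whose group means were below 100 normalized counts. Such values are also given for chains past 2-fold in Stem versus TGF-β or TGF-β versus Both, at a group mean of at least 100 normalized counts. Processing genes named are the 3 largest rises and 3 largest falls of each comparison among genes that passed the test. Serpinh1, Lox, P4ha1 and Plod2 are named besides.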

Additional observations from a re-analysis of the deposited data

How the results depend on the processing

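The numbers of chains that rose and fell between Stem and TGF-β stayed within 1.5 times of those reported under every alternative run (DESeq2, other scalings and filters, another prior count, the 6 libraries compared alone, each library left out). Between TGF-β and Both, the 5 chains lower by at least 2-fold became 3 with total counts and 0 when tested against 2-fold, and the 6 processing genes that rose became 10 without the filter and 2 to 5 with 1 library left out. With total counts, the median gene had a log2 change of -0.122 from Stem to TGF-β. Replicate numbers did not pair the libraries throughout. Correlations of same-numbered deviations were 0.139 to 0.196 for the 3 pairs of replicate 2 and -0.054 to 0.11 for the other same-numbered pairs. Between libraries of different numbers they ran from -0.181 to 0.167. Replicate 2 had the highest collagen percent of each group (1.51, 4.81 and 3.49%). With the number as a replicate block, 8 processing genes in place of 6 rose and 10 in place of 7 fell between TGF-β and Both, 21 chains rose and 12 fell between Stem and TGF-β, 26 fell between TGF-β and Both, and 13 in place of 14 fell between Stem and Both.

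Class shares depend on length, with the direction of the change from Stem to TGF-β kept. In Stem, TGF-β and Both, the fibrillar share was 58.9, 79.8 and 78.5% over the union of exons, the length used first. For reads not divided by length it was 81.2% in TGF-β and 80.2% in Both. The basement membrane share was 14.1, 10.8 and 11.9% over the union and 11.8, 9.24 and 10.2% undivided, and the beaded share was 12.0, 3.22 and 2.95% and 8.71, 3.20 and 2.69%.

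Some log2 differences that did not pass the threshold changed sign in some settings, and the cause was not tested. The log2 difference of Col3a1 between Stem and Both was -0.0936 with total counts, -0.00331 with a mean of at least 10 counts and -0.11 to 0.18 with 1 library left out. With 1 library left out, Col18a1 ran from -0.0985 to 0.0394 between Stem and TGF-β. Between TGF-β and Both, such ranges were -0.0154 to 0.15 for Col11a2, -0.0873 to 0.35 for Col27a1, -0.45 to 0.14 for Col23a1, -0.0614 to 0.0178 for Lox and -0.00961 to 0.0726 for Itga2. Col6a6, at -0.66 with all libraries and at 20 counts or fewer in each treated library, ran from -1.09 to 0.0776, the latter without TGF-β replicate 2. Chains under about 20 normalized counts rest on few reads, and whether depth limits them was not tested.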
